A study of Homo sapiens with 54 samples.

Results

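The genes of the SWI/SNF chromatin remodelling complex were followed through 2 cancer cell lines that had survived cisplatin, as the length of open chromatin called at each gene. The 10 genes were chosen by name, not by any measured value. They are the ATPases SMARCA2 and SMARCA4, the core subunits SMARCB1, SMARCC1, SMARCC2 and SMARCD1, the BAF subunits ARID1A and ARID1B, and the PBAF subunits ARID2 and PBRM1, out of 19970 protein-coding genes with a position on GRCh38. Of these genes 9 had enough peaks to be tested and SMARCB1 had none.

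Open chromatin was mapped by ATAC-seq, in which a transposase cuts and tags accessible DNA. The lines are MDA-MB-231, from a triple-negative breast cancer, and PC3, from a prostate cancer that grows without androgen. Cisplatin is a platinum compound that forms crosslinks in DNA. Per line there were untreated cells (control) and surviving cells taken 1 day (1DPTR) and 10 days (10DPTR) after its removal. With 3 biological replicates in each of 6 groups and 1 peak list for each replicate, n = 3 lists a group throughout. Each biological replicate had been split into 3 experimental replicates, for 54 sequenced samples in all. Drug dose and length of treatment were not given in the sources used here. The survivors are the cells that remained, and in bulk chromatin a change in every cell and a change in the share of cells with an open site cannot be told apart.

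SWI/SNF complexes use ATP to slide or evict nucleosomes and keep enhancers and promoters accessible to transcription factors. Each complex holds a single ATPase, SMARCA2 (also called BRM) or SMARCA4 (BRG1), on a core built around SMARCB1, SMARCC1 or SMARCC2, and SMARCD proteins. ARID1A or ARID1B marks the BAF form of the complex and ARID2 with PBRM1 the PBAF form, and loss of these subunits is frequent in human tumours.

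The promoters of SMARCA2, SMARCA4 and ARID1B are printed because each of these genes has more than 1 annotated start, of which some lay under a peak in all 18 lists and others in none. The sequences are 300 bases each, from 250 before to 50 after the annotated start, on the plus strand of GRCh38.p14, from RefSeq. Capitals mark a GC box (GGGCGG or its reverse complement CCGCCC, which may overlap another copy), an AP-1 motif (TGANTCA, either strand) and a CCAAT box (CCAAT, either strand). Over all 34961 annotated promoters, 45.0% held a GC box, 7.7% an AP-1 motif and 34.6% a CCAAT box.
SMARCA2 first start, chr9:2015097-2015396, peak in 18 lists: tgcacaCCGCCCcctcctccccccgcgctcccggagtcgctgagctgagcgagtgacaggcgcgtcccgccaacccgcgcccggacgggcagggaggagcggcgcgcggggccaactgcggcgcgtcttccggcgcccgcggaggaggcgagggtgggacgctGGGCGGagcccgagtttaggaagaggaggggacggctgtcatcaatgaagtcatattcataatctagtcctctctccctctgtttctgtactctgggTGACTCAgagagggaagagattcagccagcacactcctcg
SMARCA2 internal start, chr9:2158214-2158513, peak in 15 lists: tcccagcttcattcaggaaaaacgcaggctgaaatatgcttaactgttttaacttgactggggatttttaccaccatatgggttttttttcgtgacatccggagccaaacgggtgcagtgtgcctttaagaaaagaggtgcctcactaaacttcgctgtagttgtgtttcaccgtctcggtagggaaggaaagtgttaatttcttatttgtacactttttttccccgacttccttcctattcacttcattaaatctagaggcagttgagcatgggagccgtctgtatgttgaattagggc
SMARCA2 second start, chr9:2021695-2021994, no peak: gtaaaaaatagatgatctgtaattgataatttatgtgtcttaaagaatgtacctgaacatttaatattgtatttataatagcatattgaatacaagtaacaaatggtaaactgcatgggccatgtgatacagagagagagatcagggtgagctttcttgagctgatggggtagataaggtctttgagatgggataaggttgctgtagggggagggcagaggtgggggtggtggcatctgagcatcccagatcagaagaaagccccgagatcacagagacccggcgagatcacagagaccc
SMARCA4 first start, chr19:10960780-10961079, peak in 18 lists: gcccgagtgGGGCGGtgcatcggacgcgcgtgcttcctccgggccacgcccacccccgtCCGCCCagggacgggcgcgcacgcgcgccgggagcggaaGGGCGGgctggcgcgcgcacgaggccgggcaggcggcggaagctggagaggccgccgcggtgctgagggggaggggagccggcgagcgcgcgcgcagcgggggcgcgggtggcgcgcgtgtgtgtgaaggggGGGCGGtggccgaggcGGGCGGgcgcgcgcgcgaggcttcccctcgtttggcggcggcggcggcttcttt
SMARCA4 second start, chr19:10983874-10984173, no peak: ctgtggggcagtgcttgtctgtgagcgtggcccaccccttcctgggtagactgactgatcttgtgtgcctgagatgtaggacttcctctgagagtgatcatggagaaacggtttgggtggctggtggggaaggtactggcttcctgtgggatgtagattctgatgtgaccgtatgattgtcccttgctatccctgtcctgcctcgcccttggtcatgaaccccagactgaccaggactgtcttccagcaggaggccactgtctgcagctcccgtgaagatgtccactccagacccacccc
ARID1B first start, chr6:156775776-156776075, no peak: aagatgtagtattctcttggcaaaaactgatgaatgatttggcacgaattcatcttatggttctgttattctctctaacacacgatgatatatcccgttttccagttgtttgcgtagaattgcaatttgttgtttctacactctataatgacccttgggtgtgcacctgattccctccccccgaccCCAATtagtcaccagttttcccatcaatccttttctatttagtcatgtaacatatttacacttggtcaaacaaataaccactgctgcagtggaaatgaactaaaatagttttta
ARID1B second start, chr6:156777128-156777427, peak in 18 lists: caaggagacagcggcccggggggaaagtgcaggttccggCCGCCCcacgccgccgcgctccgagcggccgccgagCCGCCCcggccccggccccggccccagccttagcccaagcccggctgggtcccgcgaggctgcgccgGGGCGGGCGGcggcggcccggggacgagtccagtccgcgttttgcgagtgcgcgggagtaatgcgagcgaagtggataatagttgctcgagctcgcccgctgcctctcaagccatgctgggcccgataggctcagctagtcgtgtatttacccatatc

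The table of promoters matched 7 of the 10 genes, with 13 starts. A peak overlapped 7 of these starts in all 18 lists: the first start of SMARCA2 and of SMARCA4, the second of ARID1B, the single starts of ARID1A and SMARCD1, and the paired starts of PBRM1, which share a peak. These 7 promoters held between 30 and 55 CG dinucleotides, against a median of 14 over all promoters. The starts that never had a peak held 3 CG (SMARCA2, second), 5 (SMARCA4, second), 5 (ARID1B, first) and 25 (SMARCB1). The open SMARCA2 promoter carried 2 GC boxes and an AP-1 motif TGACTCA, the open SMARCA4 promoter 5 GC boxes and the open ARID1B promoter 4. The SMARCB1 promoter, which was never under a peak, also held a GC box and an AP-1 motif. Over all annotated starts, the share under a peak lay between 46.0% and 50.0% in every list. SMARCC1, SMARCC2 and ARID2 had no promoter entry, so 1 kb windows at either end of the gene were used. A peak was present in all 18 lists at the higher-coordinate end of SMARCC1 and of SMARCC2 and at the lower-coordinate end of ARID2.

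The first start of SMARCA2 was open in both lines, but under peaks of very different width. In MDA-MB-231 the peak was 3677, 4086 and 4049 bp wide in controls, 3648, 3766 and 3767 bp at 1DPTR, and 924, 1078 and 3755 bp at 10DPTR. In PC3 it was between 839 and 1166 bp wide in all 9 lists. The wide MDA-MB-231 peaks ranked from 50 to 182 by the area the authors gave each peak in its list, and the 2 narrow ones of 10DPTR ranked 3782 and 3632. The PC3 peaks ranked from 5572 to 9904. The covered length around the start differed less than the peak width: the bases under any peak within 2 kb of the start averaged 2657 ± 148 bp at MDA-MB-231 10DPTR, against 2916 ± 145 bp in controls (SD, n = 3 each). Around the same start they averaged 2344 ± 355 bp at PC3 10DPTR and 2538 ± 45.5 bp in PC3 controls.

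A pair of internal SMARCA2 starts lies within the gene body, at chr9:2157412-2157711 and chr9:2158214-2158513. Within 2 kb of the first of this pair, 237, 345 and 672 bp (lowest to highest) were covered at PC3 10DPTR, against 760, 1015 and 1029 bp in PC3 controls. These groups did not overlap, and PC3 1DPTR lists, between 998 and 1242 bp, lay among or above the controls. In MDA-MB-231 the 9 lists held between 1145 and 1438 bp there. The other internal start, printed above, was under a peak in 15 lists and in none of the 3 PC3 10DPTR lists. A peak reached the first in 17 lists, all but 1 of PC3 10DPTR.

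The open start of ARID1B narrowed in MDA-MB-231 survivors. Its peak measured from 475 to 1406 bp at 1DPTR and from 455 to 1177 bp at 10DPTR, against 2101 to 3104 bp in controls. The bases covered within 2 kb of it averaged 1468 ± 284 bp at 1DPTR and 1685 ± 340 bp at 10DPTR, against 2546 ± 279 bp in controls (SD, n = 3 each), and neither survivor group overlapped the controls. PC3 lists averaged 1478 ± 410 bp at 1DPTR, 1262 ± 60.6 bp at 10DPTR and 1244 to 1490 bp in controls, which overlap. These start-site values are descriptions of single sites and were not tested.

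The 9 genes with peaks each had a start or gene end under a peak in all 18 lists, and the unscaled bases covered within 2 kb of these were compared between groups. At PC3 10DPTR all 3 lists lay below all 3 controls at 5 of the 9, those of SMARCA4, SMARCC1, SMARCC2, ARID1A and ARID2, beside 41.9% of all 13649 annotated starts with a peak in 18 lists. The ARID1A start, for one, held 726 to 918 bp at PC3 10DPTR, against 1151 to 2445 bp in PC3 controls, and the ARID2 end 1568 to 1709 bp, against 2082 to 2498 bp. At MDA-MB-231 1DPTR this was so at 5 of the 9 (SMARCC1, SMARCD1, ARID1A, ARID1B and PBRM1), beside 28.4% of all such starts, and at MDA-MB-231 10DPTR at 3 (SMARCC1, ARID1B and PBRM1), beside 30.3%. At PC3 1DPTR none of the 9 lay wholly below controls, beside 5.91% of all such starts. None lay wholly above controls in any of the 4 comparisons, where few of all such starts did. Those shares were 2.41% at MDA-MB-231 1DPTR, 0.887% at MDA-MB-231 10DPTR, 8.1% at PC3 1DPTR and 3.06% at PC3 10DPTR. The shared PBRM1 start held between 926 and 1269 bp in all 18 lists.

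**Figure D1:**
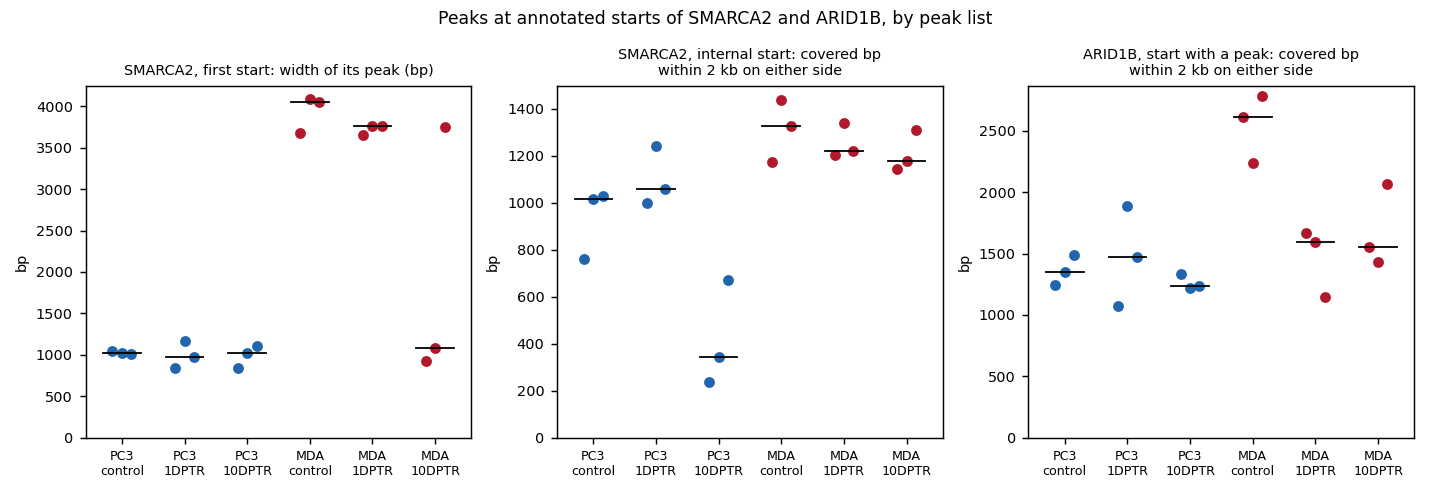
Width of the peak at the first SMARCA2 start, and bases covered within 2 kb of an internal SMARCA2 start and of the open ARID1B start, in bp for each of the 18 lists (points, with the group median as a line). Only MDA-MB-231 lists had first-start peaks of 3648 bp or more, the 3 PC3 10DPTR lists were lowest at the internal SMARCA2 start (237 to 672 bp), and MDA-MB-231 controls were highest at ARID1B (2239 to 2783 bp).

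SMARCB1 (chr22:23786966-23838009), the core subunit lost in rhabdoid tumours, had no peak in its body or the 10 kb on each side in any of the 18 lists, its promoter included. It is listed at 0 and no fold was computed. The gap was not limited to the gene. No list held a peak in chr22:23763212-24042426, a stretch of 279.2 kb that touches 12 protein-coding genes and wholly contains 10, among them MIF, a cytokine gene, and its neighbour DDT. Without a peak in any list there were 2168 protein-coding genes (10.86%). The peak lists therefore do not say whether SMARCB1 was closed in these cells, and the cause of the gap was not tested.

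The 18 lists held from 82392 to 165535 peaks on chromosomes 1 to 22 and X and covered from 54.4 to 82.3 Mb, with more peaks in every survivor list than in any control list of the same line. Depth is unknown because the lists hold no read counts. The p-values measure the spread between lists within groups, pooled over the 6 groups and moderated by limma over all genes. Markers known for the lines were in place: HOXB13, a prostate homeobox gene, had 8.91 to 13.8 kb of covered length in PC3 lists and 0.502 to 1.53 kb in MDA-MB-231 lists. VIM, a mesenchymal filament gene, had 2.61 to 3.11 kb in PC3 and 5.03 to 6.93 kb in MDA-MB-231, and CDKN2A, which is deleted in MDA-MB-231, was listed at 0 in its 9 lists. The blood marker PTPRC stayed at or under 0.594 kb in every list.

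The value followed for each gene is its peak-covered length, the bases under a peak between 10 kb below and 10 kb above the gene body, scaled to an equal total over the lists. Per kb of that window, SMARCC2 was the most covered gene of the set in MDA-MB-231 controls, with 200.4 bp, and SMARCD1 in PC3 controls, with 144.8 bp. ARID2 was the least covered in MDA-MB-231 controls, with 24.6 bp per kb. SMARCA2 (23.2 bp per kb) and ARID2 (23.7 bp per kb) were lowest in PC3 controls, and their order there is within the spread between lists. The median over all genes was 55.9 bp per kb in MDA-MB-231 controls and 48.0 bp per kb in PC3 controls. The windows of SMARCA2, SMARCA4, ARID1B and ARID2 reach no other protein-coding gene body. The window of SMARCC2 also reaches MYL6B and MYL6, that of SMARCD1 reaches ASIC1 and GPD1, and that of PBRM1 reaches GNL3, UQCC5 and GLT8D1, so open sites of those genes count there too. PIGV and CSPG5 lie partly or wholly in the windows of ARID1A and SMARCC1.

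Over all 18 lists the covered length of SMARCC1 and SMARCA2 varied most, with an SD of 0.39 and 0.38 on the log2 scale, and that of SMARCD1 and ARID1A least, with 0.15 and 0.16. Of all genes tested, 63.0% varied less than SMARCC1 and 8.0% less than SMARCD1.

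**Figure D2:**
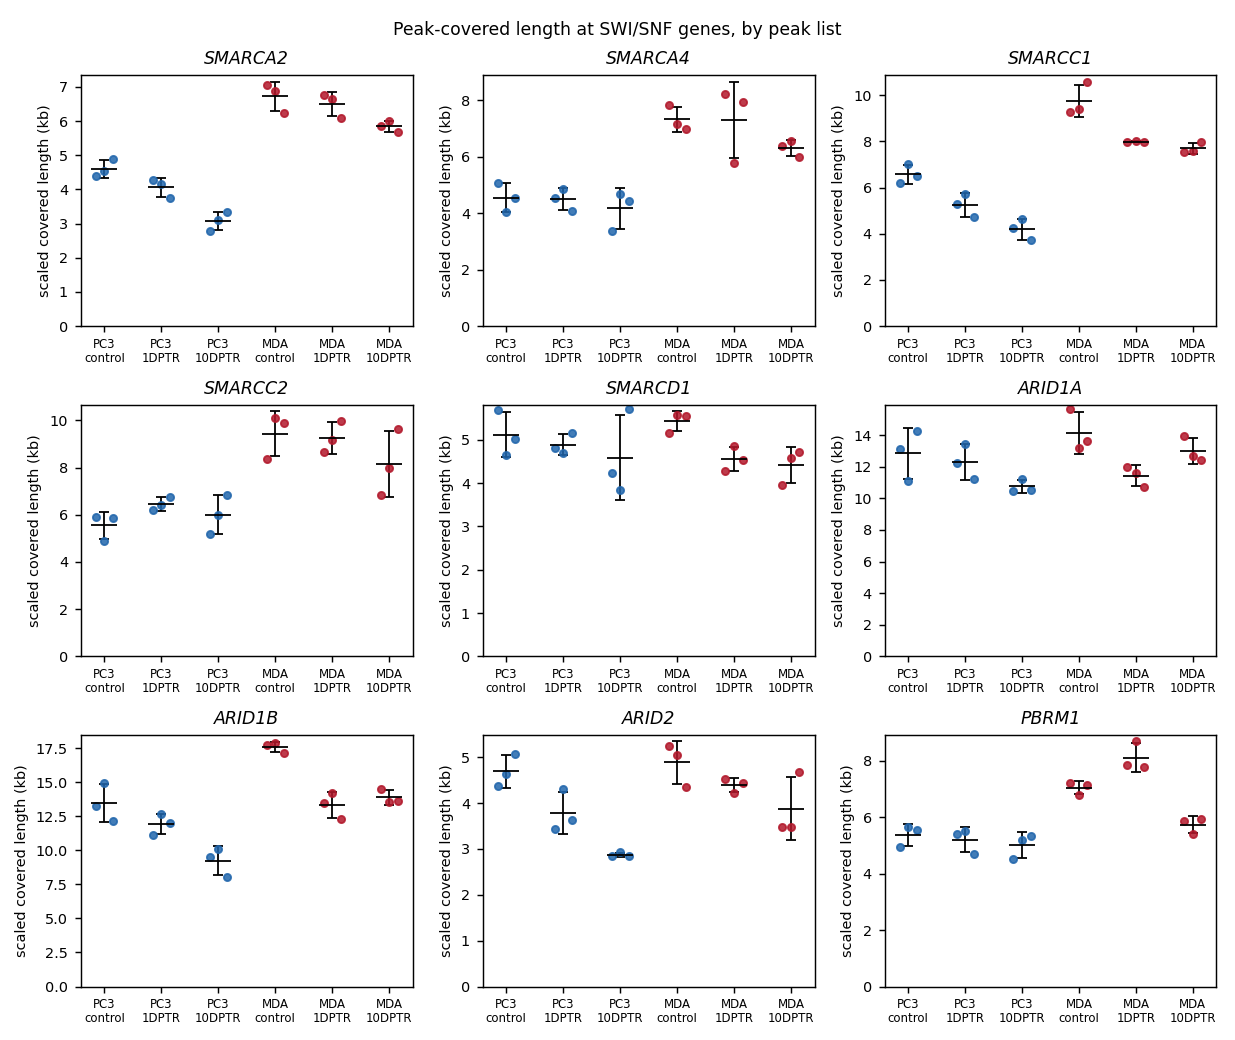
Scaled peak-covered length (kb) of the 9 genes with peaks, 1 panel a gene, in each of the 18 lists (points) with mean and SD of each group of 3. SMARCA2, SMARCC1, ARID1B and ARID2 step down from control to 10DPTR in PC3, and PBRM1 stands highest at MDA-MB-231 1DPTR (7.77 to 8.71 kb).

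Before treatment the lines already differed. In PC3 controls 6 of the 9 genes were lower than in MDA-MB-231 controls and none was higher: SMARCA2, SMARCA4, SMARCC1, SMARCC2, ARID1B and PBRM1 (limma over all 16813 genes, Benjamini-Hochberg adjusted p at most 0.05). Lower calls were also the most frequent outcome over the genome, at 44.2% of genes, with 21.0% higher, so the share among the 9 is to be read against that. The median change was −0.38 on the log2 scale over the 9 genes and −0.20 over all genes. Under median-of-ratios scaling, which centres the median of all genes near 0, the genome split was 5085 higher and 4930 lower, against 3536 and 7437 under equal totals, and ARID1B (−0.14) and PBRM1 (−0.13) were no longer called. The other 4 of the 6 remained called.

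SMARCC2, a core scaffold subunit, differed most between the untreated lines. Its covered length was 5.92, 4.88 and 5.86 kb in PC3 controls, against 8.36, 10.1 and 9.88 kb in MDA-MB-231 controls. Every PC3 list lay under every MDA-MB-231 list, as for 47.7% of all genes in this comparison, with a log2 difference of −0.72 ± 0.12 (SE; limma adjusted p = 4.23e-05). SMARCA4 had 5.07, 4.04 and 4.53 kb in PC3 controls, against 7.83, 7.16 and 6.98 kb in MDA-MB-231 controls, also without overlap, a log2 difference of −0.64 ± 0.13 (limma adjusted p = 2.85e-04). Relative to the other genes of its chromosome arm the SMARCA4 difference was −0.08 and was not called (limma adjusted p = 0.619). ARID2 (−0.05 ± 0.11), SMARCD1 (−0.08 ± 0.11) and ARID1A (−0.14 ± 0.09) were not called between the lines.

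In PC3 most of the calls came at 10DPTR. At that time 5 of the 9 genes were lower than in controls and none higher: SMARCA2, SMARCC1, ARID1A, ARID1B and ARID2. Over all genes 33.1% were lower and 11.8% higher in this comparison. SMARCA4, SMARCC2, SMARCD1 and PBRM1 were not called, with log2 changes between −0.16 and 0.10. At 1DPTR only SMARCC1 was called, lower, against a background of 7.26% lower and 6.05% higher, and the other 8 lay between −0.28 (ARID2) and 0.21 (SMARCC2). Between 10DPTR and 1DPTR, SMARCA2, SMARCC1 and ARID1B were lower at 10DPTR, where 5.51% of all genes were lower and 2.20% higher. The SMARCC1 call (−0.29 ± 0.08, limma adjusted p = 0.0448) was lost under 7 of 11 alternatives and without 1DPTR list 1 or 2 or 10DPTR list 1 or 3 (limma adjusted p up to 0.201). ARID2 (−0.34), ARID1A (−0.18), SMARCA4 (−0.11), SMARCC2 (−0.11), SMARCD1 (−0.10) and PBRM1 (−0.05) were not called. The median change of the 9 genes from control was −0.06 at 1DPTR (0.20 without scaling) and −0.24 at 10DPTR (−0.05 under median-of-ratios scaling), beside −0.07 and −0.16 for all genes. The same control lists enter both comparisons with control.

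**Figure D3:**
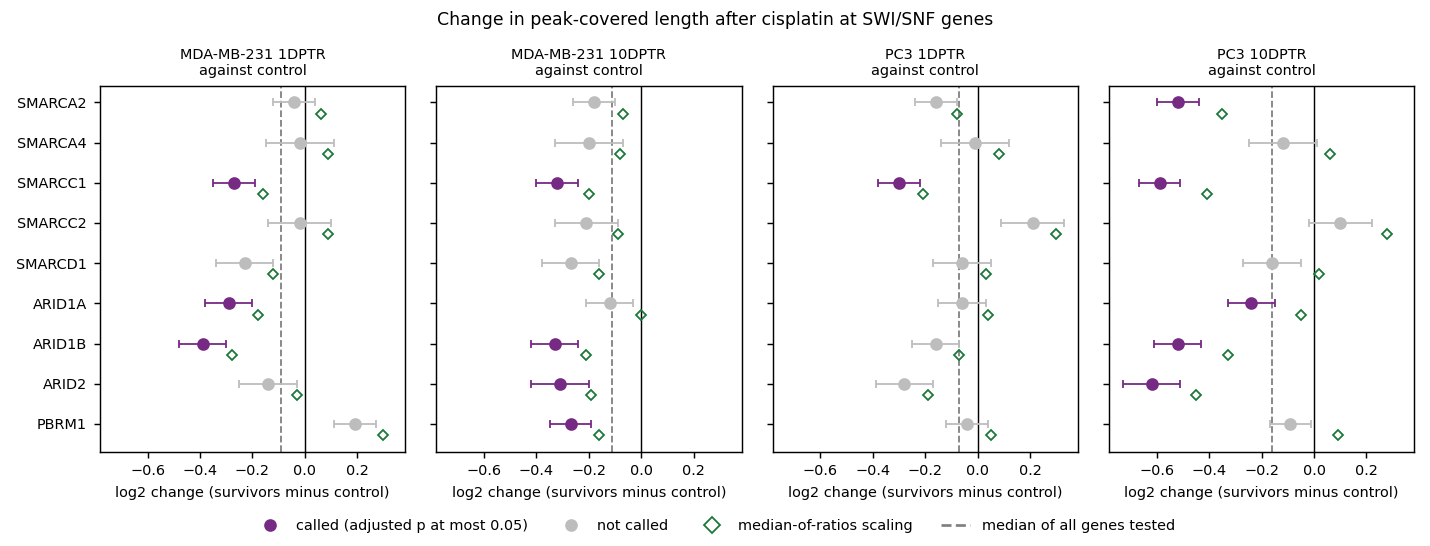
Change in peak-covered length of each gene on the log2 scale, survivors minus control, for MDA-MB-231 and PC3 at 1DPTR and 10DPTR (circles with SE, purple where called and grey where not), with the same change under median-of-ratios scaling (diamonds) and the median of all genes (dashed line). SMARCA2, SMARCC1, ARID1B and ARID2 lie furthest below 0 at PC3 10DPTR, between −0.52 and −0.62, and stay called with the diamonds between −0.33 and −0.45.

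How lists are scaled decided part of these calls. With median-of-ratios scaling the PC3 10DPTR split of all genes was 3416 higher and 2515 lower, against 1983 and 5562 under equal totals, and SMARCA2 (−0.35), SMARCC1 (−0.41), ARID1B (−0.33) and ARID2 (−0.45) were still called lower while ARID1A (−0.05) was not. Without any scaling the median of all genes was 0.05 in place of −0.16, the split was 2818 higher and 1186 lower, and ARID2 alone was called (−0.40, limma adjusted p = 0.0499). For PC3 1DPTR the split was 1469 higher and 403 lower under median-of-ratios against 1017 and 1221, with SMARCC1 no longer called (−0.21), and without scaling it was 2436 and 32. For PC3 10DPTR against 1DPTR it was 651 and 510 against 370 and 926, with SMARCA2 alone called (−0.27).

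Of the ATPases, SMARCA2 changed in PC3 and SMARCA4 did not pass the test in any comparison with control. SMARCA2 covered length was 2.80, 3.10 and 3.33 kb at PC3 10DPTR, against 4.39, 4.54 and 4.90 kb in PC3 controls. All 10DPTR lists lay below all controls, as for 38.0% of all genes in this comparison, and the log2 change was −0.52 ± 0.08 (SE; limma adjusted p = 1.12e-04). At PC3 1DPTR it had 4.28, 4.17 and 3.74 kb, with a log2 change from control of −0.16 ± 0.08 that was not called (limma adjusted p = 0.164). Between 10DPTR and 1DPTR the log2 change was −0.35 ± 0.08 (limma adjusted p = 0.011), not called without 1DPTR list 2 (limma adjusted p = 0.0534). SMARCA2 in MDA-MB-231 had 6.76, 6.66 and 6.09 kb at 1DPTR and 5.87, 6.00 and 5.68 kb at 10DPTR, against 7.04, 6.88 and 6.24 kb in controls, and neither difference was called. SMARCA4 averaged 4.17 ± 0.710 kb at PC3 10DPTR and 4.55 ± 0.518 kb in PC3 controls, a difference within the spread of the lists (−0.12 ± 0.13). In MDA-MB-231 it averaged 6.31 ± 0.278 kb at 10DPTR and 7.33 ± 0.445 kb in controls (SD, n = 3 each), without overlap, and was not called (−0.20 ± 0.13, limma adjusted p = 0.247). Of all genes, 32.3% lay wholly below controls at MDA-MB-231 10DPTR.

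SMARCC1, a scaffold subunit of the core, was the gene called in all 4 comparisons of survivors with controls. At PC3 10DPTR it had 4.25, 4.63 and 3.72 kb, against 6.18, 7.02 and 6.49 kb in PC3 controls. All 10DPTR lists lay below all controls, as for 38.0% of all genes at PC3 10DPTR, and the log2 change was −0.59 ± 0.08 (SE; limma adjusted p = 6.74e-05). At PC3 1DPTR, with 5.28, 5.74 and 4.71 kb, it lay between the other PC3 groups (−0.30 ± 0.08, limma adjusted p = 0.0281), a call lost on leaving out any of 4 single lists, lists 1 and 3 of 1DPTR and lists 2 and 3 of the controls (highest limma adjusted p = 0.13). In MDA-MB-231 it had 7.98, 8.01 and 7.98 kb at 1DPTR and 7.54, 7.59 and 7.96 kb at 10DPTR, against 9.28, 9.38 and 10.5 kb in controls. All survivor lists of that line lay under all control lists, as for 30.2% of all genes at 1DPTR and 32.3% at 10DPTR, with log2 changes of −0.27 ± 0.08 at 1DPTR and −0.32 ± 0.08 at 10DPTR (limma adjusted p = 0.0277 and 0.0101). The MDA-MB-231 1DPTR call was lost without any single 1DPTR list or control list 3 (limma adjusted p up to 0.114), and the 10DPTR call without control list 3 (limma adjusted p = 0.0559). Neither was called under median-of-ratios scaling (−0.16 and −0.20).

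The other core genes were not called against controls in either line. SMARCC2 in PC3 had 6.21, 6.40 and 6.77 kb at 1DPTR and 5.17, 6.01 and 6.83 kb at 10DPTR, against 5.92, 4.88 and 5.86 kb in controls, and neither change was called (0.21 ± 0.12 and 0.10 ± 0.12). Counted over the gene body alone it was called higher at PC3 1DPTR (1.33 ± 0.32, limma adjusted p = 0.0171) and PC3 10DPTR (1.28 ± 0.32, limma adjusted p = 0.00568), and its line difference at 10DPTR was 1.44 ± 0.46 (limma adjusted p = 0.0417). SMARCD1, which links the core to transcription factors, averaged 4.42 ± 0.417 kb at MDA-MB-231 10DPTR, against 5.43 ± 0.232 kb in controls, without overlap, and was not called (−0.27 ± 0.11, limma adjusted p = 0.0795). Of all genes, 32.3% lay wholly below controls there.

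Both BAF-defining genes were lower in some survivors. ARID1B had 9.54, 10.1 and 8.04 kb at PC3 10DPTR, against 13.2, 14.9 and 12.2 kb in PC3 controls, with no overlap and a log2 change of −0.52 ± 0.09 (SE; limma adjusted p = 2.58e-04). In MDA-MB-231 it had 13.5, 14.2 and 12.3 kb at 1DPTR and 14.5, 13.5 and 13.6 kb at 10DPTR, against 17.7, 17.9 and 17.2 kb in controls. Again no survivor list reached a control list, and the log2 changes were −0.39 ± 0.09 at 1DPTR and −0.33 ± 0.09 at 10DPTR (limma adjusted p = 0.0041 and 0.01). Of all genes, 38.0% lay wholly below controls at PC3 10DPTR, 30.2% at MDA-MB-231 1DPTR and 32.3% at MDA-MB-231 10DPTR. Between PC3 10DPTR and 1DPTR ARID1B was lower as well (−0.36 ± 0.09, limma adjusted p = 0.0192), a call lost without 1DPTR list 2 or 3 or 10DPTR list 3 (limma adjusted p up to 0.0977). ARID1A had 12.0, 11.6 and 10.7 kb at MDA-MB-231 1DPTR, against 15.7, 13.2 and 13.6 kb in controls (−0.29 ± 0.09, limma adjusted p = 0.0291), which was not called without 1DPTR list 2 or 3 or control list 1. At PC3 10DPTR its call (−0.24 ± 0.09, limma adjusted p = 0.0447) was lost on leaving out any of 5 of the 6 lists, all but control list 2, and the groups overlapped.

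Of the PBAF genes, ARID2 was lower at 10DPTR in both lines and PBRM1 in MDA-MB-231, and neither was called in the test of the line difference (−0.31 for ARID2 and 0.18 for PBRM1 at 10DPTR). ARID2 had 2.85, 2.93 and 2.85 kb at PC3 10DPTR, against 4.36, 4.64 and 5.07 kb in PC3 controls. That is the largest fall of the 9 genes in any comparison with control, −0.62 ± 0.11 on the log2 scale (SE; limma adjusted p = 2.79e-04), with no overlap between the lists. Of all genes, 38.0% lay wholly below controls at PC3 10DPTR. At MDA-MB-231 10DPTR ARID2 had 3.48, 3.47 and 4.68 kb, against 5.25, 5.05 and 4.35 kb in controls, and although it was called (−0.31 ± 0.11, limma adjusted p = 0.0394) the groups overlapped and the call was lost without list 1 or 2 of either group (limma adjusted p up to 0.146).

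PBRM1, whose bromodomains bind acetylated histones, stood above controls at 1DPTR and below them at 10DPTR in MDA-MB-231. It had 7.87, 8.71 and 7.77 kb at 1DPTR and 5.87, 5.40 and 5.95 kb at 10DPTR, against 7.23, 6.78 and 7.14 kb in controls. All 1DPTR lists lay above the controls and all 10DPTR lists below them. At 1DPTR 45.6% of all genes lay wholly above or wholly below controls, with 30.2% of all genes below. At 10DPTR 32.3% of all genes lay wholly below. The fall between 1DPTR and 10DPTR had the largest log2 change of the 9 genes in that line, −0.46 ± 0.08 on the log2 scale (SE; limma adjusted p = 0.00323). It was called under 10 of 11 alternatives, all but the 50000 largest peaks of each list (limma adjusted p = 0.288), and without any single list. Against controls PBRM1 was not called at 1DPTR under equal totals (0.19 ± 0.08, limma adjusted p = 0.1) and was called higher under median-of-ratios scaling (0.30, limma adjusted p = 0.0209) and over the gene body alone (0.31, limma adjusted p = 0.0065). At 10DPTR it was lower (−0.27 ± 0.08, limma adjusted p = 0.021), a call lost without 10DPTR list 2 or control list 1 or 3 (limma adjusted p up to 0.082). In PC3 the PBRM1 values overlapped in every pair of groups.

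In MDA-MB-231 as a whole, 3 of the 9 genes were lower at 1DPTR (SMARCC1, ARID1A and ARID1B), against 15.5% of all genes, and none was higher, against 10.8%. SMARCA2, SMARCA4, SMARCC2, SMARCD1, ARID2 and PBRM1 were not called, with log2 changes between −0.23 and 0.19. At 10DPTR 4 were lower (SMARCC1, ARID1B, ARID2 and PBRM1), against 16.7%, and none higher, against 10.9%. SMARCA2, SMARCA4, SMARCC2, SMARCD1 and ARID1A were not called, with log2 changes between −0.27 and −0.12. The median change of the 9 genes was −0.14 at 1DPTR (0.01 without scaling) and −0.27 at 10DPTR, beside −0.09 and −0.11 for all genes. Under median-of-ratios scaling the split of all genes was 2237 higher and 956 lower at 1DPTR, against 1816 and 2605 under equal totals, and 2175 and 965 at 10DPTR, against 1841 and 2809, and of the lower calls ARID1B at 1DPTR alone remained (−0.28, limma adjusted p = 0.0449). Without scaling the splits were 1897 and 318 at 1DPTR and 1458 and 1192 at 10DPTR, and none of the 9 was called in either comparison. Between 10DPTR and 1DPTR PBRM1 was the single gene called, lower, where 3.24% of genes were lower and 2.12% higher (544 and 357 genes, and 819 and 152 without scaling). The other 8 lay between −0.19 (SMARCC2) and 0.18 (ARID1A).

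Whether the lines responded differently was tested as the PC3 change minus the MDA-MB-231 change. For the 10DPTR change SMARCA2 was the 1 gene called, with a difference of −0.33 ± 0.11 on the log2 scale (SE; limma adjusted p = 0.0497): its change was −0.52 in PC3 and −0.18 in MDA-MB-231. In this test 10.6% of all genes were lower in PC3 relative to MDA-MB-231 and 5.81% higher. The SMARCA2 call lay at the threshold, was lost under 6 of 10 alternatives and remained on leaving out only 2 of 12 lists, MDA-MB-231 control list 1 and PC3 10DPTR list 3. Median-of-ratios scaling gave −0.28 (limma adjusted p = 0.0787) and a split of all genes of 1336 higher and 1357 lower, against 977 and 1776 under equal totals and 1342 and 559 without scaling. For the 1DPTR change none of the 9 was called, and none had a limma p under 0.05 even before adjustment. Of all genes 3.41% were lower and 1.85% higher. PBRM1 there had a difference of −0.23 ± 0.12, called over the gene body alone (−0.39, limma adjusted p = 0.0395).

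Single regions showed where along the genes these values came from. Peaks of all lists were merged into 232139 regions, of which 166 lay at the 10 genes. Of the 166, 47 (28.3%) had a peak in all 18 lists, beside 19.83% of all regions. A region was counted as gained where all 3 lists of the first-named group and none of the other had a peak, and as lost in the reverse case. Regions in all 9 MDA-MB-231 lists and no PC3 list made up 6.02% of those at the 10 genes (10 regions) and 2.59% of all, and those in all 9 PC3 lists and no MDA-MB-231 list 2.41% (4 regions) and 6.14% of all. Of the 10, 4 lay in ARID1B and 3 at SMARCC1, at chr3:47574555-47575529, chr3:47703589-47704230 and chr3:47789793-47790478. At SMARCA4 the region chr19:11052310-11053087 was present in MDA-MB-231 alone and chr19:10952501-10953493, upstream of the gene body, in PC3 alone. Between untreated lines, 8 of 122 regions were gained in PC3 and 20 lost, against 20.1% gained and 9.70% lost over all regions.

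At MDA-MB-231 1DPTR 10 of 129 regions were gained and 4 lost, against 8.77% and 0.755% over all regions, and PBRM1 held 4 of the 10. Outside the gene body lay chr3:52692527-52693528 (1002 bp, within GNL3) and chr3:52544982-52545315 (334 bp). Inside it lay chr3:52552116-52553056 (941 bp) and chr3:52649947-52650398 (452 bp). Each of the 4 had a peak in all 3 1DPTR lists and in no control list. Of these, 3 had no peak in any 10DPTR list, and the region of 941 bp kept one in all 3. Between 10DPTR and 1DPTR 8 regions were lost and 1 gained, against 2.52% and 2.38%, and the PBRM1 window held 4 of the 8. Of these 4, chr3:52649947-52650398 alone lay in the gene body. In this line the fall of the PBRM1 window from 1DPTR to 10DPTR thus went with whole regions with a peak at 1DPTR and none at 10DPTR. The 3 gained regions without a peak at 10DPTR had none in controls either, so they do not bear on 10DPTR lying below control. Against control PBRM1 lost 1 region at 10DPTR, chr3:52538846-52539496 (651 bp, also within UQCC5), which lies below the gene body. At 10DPTR against control, 4 of 114 regions were gained and 2 lost, against 11.2% and 1.00%. At ARID1B, chr6:157045870-157046112 was present in all 3 controls and in no survivor list of the line.

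In PC3, 5 of 110 regions were gained and none lost at 1DPTR, against 4.92% and 0.465%, and 8 of 111 gained and none lost at 10DPTR, against 11.0% and 1.38%. Between 10DPTR and 1DPTR none of 116 was gained and 2 were lost, against 2.67% and 1.10%. A pair of the gained regions lay at SMARCC2, chr12:56163360-56164880 (1521 bp, in the gene body) and chr12:56196710-56197479 (770 bp, beyond its higher end). Both had a peak in 15 of the 18 lists, in every PC3 survivor list and every MDA-MB-231 list, and lacked one in the 3 PC3 controls. At SMARCA2, chr9:2094225-2094540 (316 bp) had a peak in all 3 PC3 10DPTR lists and no PC3 control, although the covered length of the gene was lower at that time. No merged region at the 10 genes was lost at PC3 10DPTR, but merging over 18 lists can join neighbouring peaks. The peak at the internal SMARCA2 start, 392 to 415 bp wide in PC3 controls and missing at PC3 10DPTR, lies in such a merged region. With peaks required to cover 50% of a region, 5 regions were lost at PC3 10DPTR, and with the 50000 largest peaks of each list 3.

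**Figure D4:**
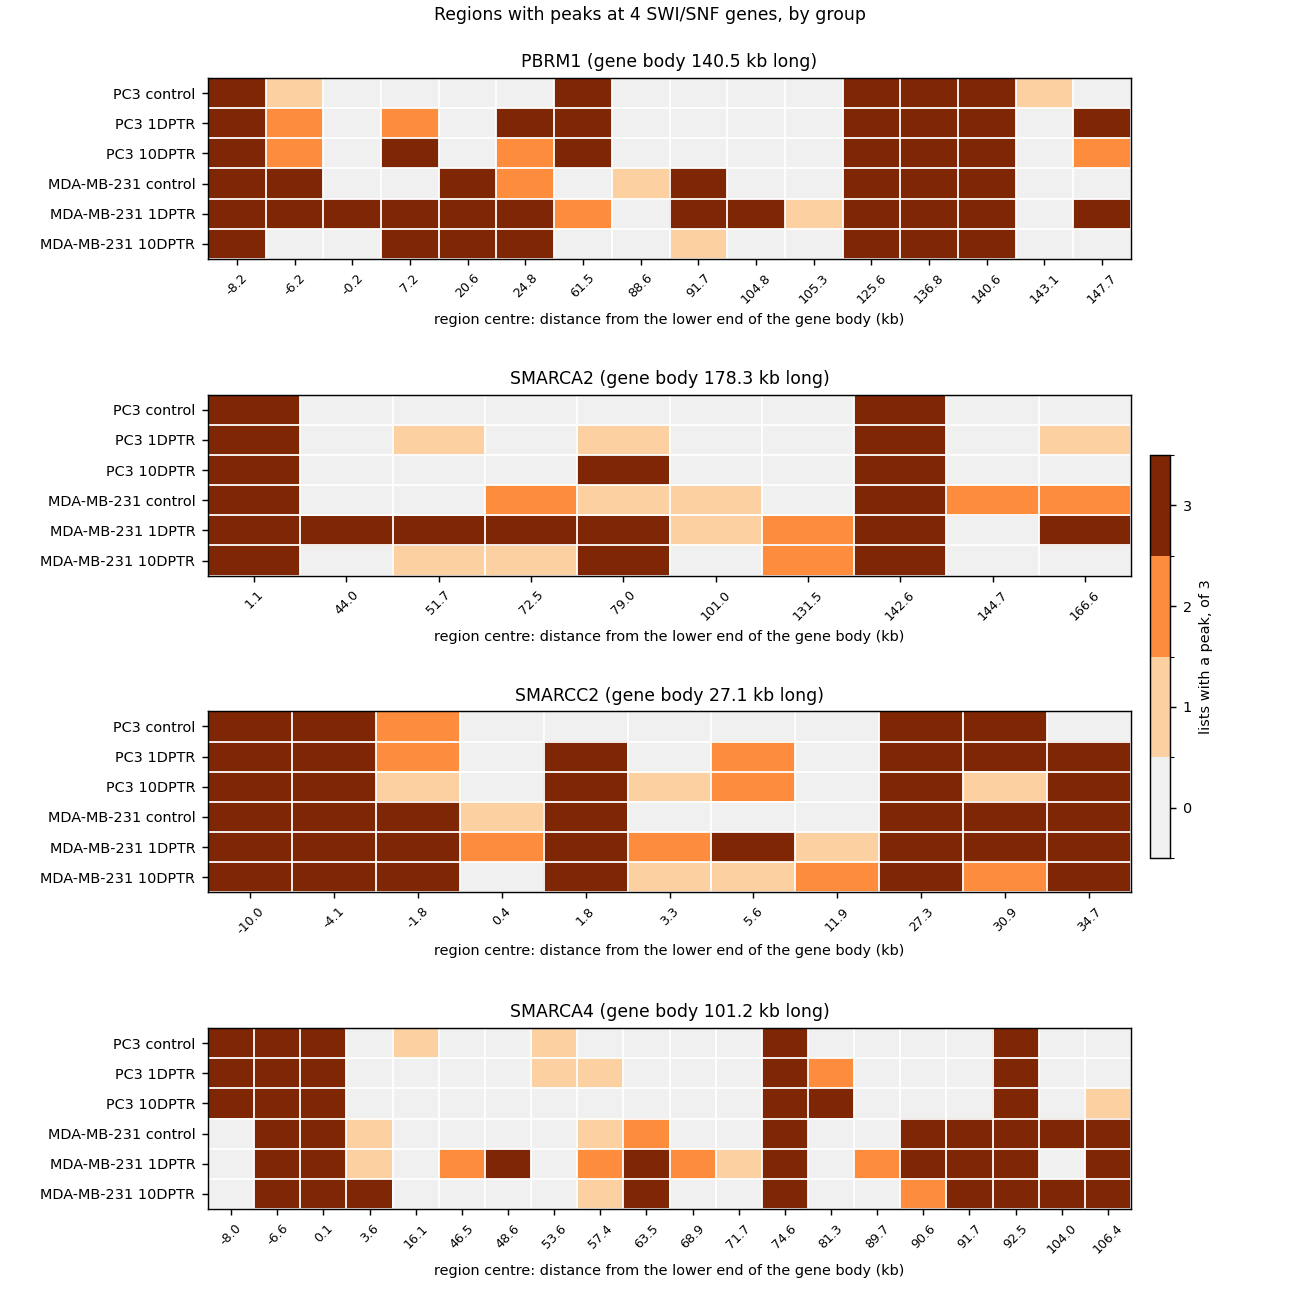
Number of lists with a peak, out of 3, in each merged region at PBRM1, SMARCA2, SMARCC2 and SMARCA4 (columns, placed by the distance of the region centre from the lower end of the gene body in kb) for each group (rows). At PBRM1 the regions of 334 and 452 bp are filled at MDA-MB-231 1DPTR only, and at SMARCC2 those of 1521 and 770 bp are empty in PC3 controls only.

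SMARCA2 (chr9:2015347-2193620) lies on the short arm of chromosome 9, and the genes of that arm were more often lower than higher at PC3 10DPTR under equal totals. Of 183 genes tested on 9p, 81 were lower and 15 higher, with a median log2 change of −0.28, beside −0.16 for all genes and −0.52 for SMARCA2. Relative to the median of its arm in each list, SMARCA2 was still lower at PC3 10DPTR (−0.22, limma adjusted p = 0.0395), and its line difference was −0.12 and not called (limma adjusted p = 0.504). Between the untreated lines the 9p median was −0.27 and SMARCA2 −0.50. Whether the number of copies of the arm has a part in this was not tested. Its neighbours went both ways: PUM3, which lies 610.5 kb away, was higher at PC3 10DPTR (0.71 ± 0.14, limma adjusted p = 8.21e-04), and VLDLR, 428.2 kb away, was not called there (−0.31 ± 0.19, limma adjusted p = 0.179). KCNV2 (0.24 ± 0.15) and DMRT3 (−0.44 ± 0.19) were not called in that comparison, and DMRT2 was lower (−0.33 ± 0.13, limma adjusted p = 0.0409).

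The covered lengths of some of the 9 genes varied together over the 18 lists, which share 6 groups, 2 lines and the scaling, so the correlations are descriptions only. Pearson's r was 0.94 for SMARCA2 with SMARCC1 and 0.91 for SMARCC1 with ARID1B, and for SMARCD1 it did not exceed 0.36 with any other. Among genes over 1 Mb away or on other chromosomes, the most like SMARCC1 were PIGL (r = 0.983), RTN2 (0.98) and IZUMO1 (0.976), and the most like SMARCA2 were MED1 (0.978), APTX on chromosome 9 (0.975) and NOC2L (0.975).

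The remaining subunits of SWI/SNF were called in both directions, as were genes in general. Of 21 other subunit genes, 2 were lower and 2 higher at MDA-MB-231 1DPTR, 4 and 1 at MDA-MB-231 10DPTR, 2 and 1 at PC3 1DPTR, and 11 and 2 at PC3 10DPTR. Over all genes 15.5% were lower and 10.8% higher, 16.7% and 10.9%, 7.26% and 6.05%, and 33.1% and 11.8% in that order. The median log2 changes of the 21 were −0.12, −0.20, −0.09 and −0.29, beside −0.09, −0.11, −0.07 and −0.16 for all genes. Under median-of-ratios scaling the PC3 10DPTR count was 5 lower and 4 higher, beside 2515 lower and 3416 higher of all 16813 genes. ACTB, which encodes the actin of the complex as well as of the cytoskeleton, averaged 2.74 kb at PC3 10DPTR, against 5.88 kb in controls (−0.99 ± 0.14, limma adjusted p = 8.59e-05), and was the largest fall among them. BICRAL (−0.62 ± 0.09) and BCL7A (−0.70 ± 0.12) were also lower there. SMARCE1, a core subunit, was lower at MDA-MB-231 1DPTR (−0.50 ± 0.11, limma adjusted p = 0.00385), though not without scaling (−0.36, limma adjusted p = 0.0884), and DPF1 was lower at MDA-MB-231 10DPTR (−0.54 ± 0.11, limma adjusted p = 0.0014).

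BCL11B, a zinc-finger transcription factor that joins BAF complexes in neurons and T cells, was higher in survivors of both lines at both times. It averaged 2.13 kb at MDA-MB-231 1DPTR and 1.85 kb at 10DPTR, against 1.20 kb in controls, and 6.42 kb at PC3 1DPTR and 6.54 kb at 10DPTR, against 4.45 kb in controls. The log2 changes were 0.63, 0.47, 0.48 and 0.50, each with an SE of 0.10 and called (largest limma adjusted p = 0.00796), and the calls held under both other scalings. Among 22 ATPases of other remodeller families, CHD6 was likewise called higher in all 4 comparisons (0.34, 0.32, 0.41 and 0.67), of which MDA-MB-231 10DPTR was not called without scaling (limma adjusted p = 0.0762). CHD4, the ATPase of the NuRD complex, was lower in PC3 at 1DPTR (−0.50 ± 0.11, not called without scaling) and 10DPTR (−0.66 ± 0.11). In all, 4 of the 22 were lower and 1 higher at MDA-MB-231 1DPTR, 6 and 2 at MDA-MB-231 10DPTR, 1 and 1 at PC3 1DPTR, and 11 and 1 at PC3 10DPTR, with 2 lower and 1 higher at PC3 10DPTR under median-of-ratios scaling. Their median log2 changes in the same order were −0.14, −0.16, −0.09 and −0.25. Over all genes the shares lower and higher were 15.5% and 10.8%, 16.7% and 10.9%, 7.26% and 6.05%, and 33.1% and 11.8% in that order.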

How the data were processed

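ATAC-seq peak lists of 18 biological replicates were analysed. The submitters' processing notes name Genrich 0.6.2, Bowtie2 2.3.5.1, SAMtools 1.6, Picard, FastQC 0.12.1 and R 4.4.1, and GRCh38 (hg38). No source used here says how the 3 experimental replicates behind a list were joined. The deposited lists give positions, an area score for each peak and its p-value as −log10, both computed by the authors. The area score served to rank peaks within a list.

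Bases under a peak were summed per protein-coding gene (RefSeq positions, GRCh38.p14) over the body and 10 kb on each side, for chromosomes 1 to 22 and X, and scaled to the mean total of all lists. A list with more or wider peaks thus gives each gene a smaller scaled share, which the other scalings address. The filter, 500 bp or more in 3 or more lists, kept 16813 of 19970 genes. Values were tested as log2(bp + 500), so changes of low genes are understated, with limma 3.58.1 (trend; R 4.3.3) over the 6 groups together, with Benjamini-Hochberg adjustment over all genes, called at adjusted p 0.05. Line differences are the PC3 change minus the MDA-MB-231 change. The fit was tested on simulated data. Counts of regions used peaks overlapping by at least 1 bp, merged with Python 3.11.15.

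All members were to be named in each comparison, up to 4 genes of each other list by smallest p, up to 3 gained and 3 lost regions a comparison by width, 5 neighbours of SMARCA2 and the 3 genes most like a member; other regions and genes named were chosen after their values were seen. The genes and lists were chosen with earlier results of these data known. Alternatives were the peak threshold, the scaling, the pseudocount, the filter, the window, the chromosome arm, the fit within a line, the replicate block and each list left out. Same-numbered lists deviated from their group means together in MDA-MB-231 1DPTR and control (correlations 0.195 to 0.389), MDA-MB-231 10DPTR and 1DPTR (0.198 to 0.418) and PC3 10DPTR and 1DPTR (0.130 to 0.345), which is taken from the data since the labels name no shared batch. The counts of starts whose groups lie apart were added after the data were seen.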

Additional observations from a re-analysis of the deposited data

Results flagged for a closer look

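The 10DPTR change of SMARCA2 differed between the lines in the test of the difference itself, with a PC3 change lower than the MDA-MB-231 change by 0.33 on the log2 scale (−0.33 ± 0.11, SE; limma adjusted p = 0.0497). The change was −0.52 in PC3 and −0.18 in MDA-MB-231, each from 3 survivor and 3 control lists. The call lies at the threshold, and with lists left out in turn the adjusted p ranged from 0.0325 to 0.127. Single lists standing apart from the others of their group were not looked for, since every group has 3.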

How the results depend on the processing

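Of 855 values of single genes recomputed under other settings, 756 kept their side of the threshold. Of the rest, 83 lost and 12 gained a call, and 4 reversed. A reversal is a change of sign in a value called in the fit above or under the other setting. Changes of sign between uncalled values count as kept, as for SMARCA4 at MDA-MB-231 1DPTR (−0.02, with alternatives up to 0.19). Of 594 with a list left out, 549 kept their side of the threshold, 42 lost and 3 gained a call. Changes of sign between uncalled values again count as kept. The reversals came with the 50000 largest peaks of each list for ARID2 at MDA-MB-231 10DPTR (0.10), ARID1A at PC3 10DPTR (0.01) and PBRM1 between untreated lines (0.08), and for this last also with the upper 50% of each list by area (0.00).

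Numbers of the 9 genes called changed as follows, and the cause was not tested. The 50000 largest peaks gave 0 in all 3 MDA-MB-231 comparisons and in PC3 10DPTR against 1DPTR, and 2 at PC3 10DPTR. Over all genes these peaks gave 648 higher and 531 lower of 15932 at MDA-MB-231 1DPTR, and 745 and 553 at 10DPTR. Between these they gave 223 and 329, in PC3 10DPTR against 1DPTR 302 and 1051, and at PC3 10DPTR 1391 and 3294. The upper 50% gave 0 at MDA-MB-231 1DPTR and 10DPTR and for the 10DPTR line difference. There 1095 higher and 1180 lower, 1080 and 801, and 610 and 1298 of 16172 genes were called. No scaling gave 0 at MDA-MB-231 1DPTR and 10DPTR, PC3 1DPTR and the 10DPTR line difference, and 1 at PC3 10DPTR and in PC3 10DPTR against 1DPTR. In this last comparison 215 of all genes were higher and 608 lower, and the other splits are given above. Median-of-ratios scaling gave 0 at MDA-MB-231 10DPTR, PC3 1DPTR and the 10DPTR line difference, and 1 in PC3 10DPTR against 1DPTR. The gene body alone gave 2 at MDA-MB-231 10DPTR, and 1 and 2 for the 1DPTR and 10DPTR line differences. Of 14933 genes, 1495 higher and 1943 lower, 382 and 518, and 864 and 1577 were called there. Values relative to the chromosome arm gave 0 at MDA-MB-231 10DPTR, PC3 10DPTR against 1DPTR and the 10DPTR line difference. In these, 2272 higher and 1286 lower, 522 and 382, and 1218 and 1355 of 16813 genes were called. Fitting the line alone gave 0 at PC3 1DPTR and PC3 10DPTR against 1DPTR, and a pseudocount of 2000 bp gave 0 for the 10DPTR line difference. All genes split there into 422 higher and 323 lower, 171 and 228, and 984 and 1568. Between untreated lines 4 were called with the 50000 largest peaks, the upper 50%, median-of-ratios scaling or the chromosome arm. The gene body alone gave 5. In that order all genes split into 2830 higher and 4800 lower, 3025 and 5727, 5085 and 4930, 5052 and 4836, and 2983 and 5737.

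With each list left out the counts ranged from 1 to 3 at MDA-MB-231 1DPTR, 2 to 4 at MDA-MB-231 10DPTR, 0 to 2 at PC3 1DPTR, 4 to 5 at PC3 10DPTR, 0 to 3 in PC3 10DPTR against 1DPTR and 0 to 1 for the 10DPTR line difference, and stayed at 1 in MDA-MB-231 10DPTR against 1DPTR, 6 between untreated lines and 0 for the 1DPTR line difference. Calls over all genes with a list left out are not given here.

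With the replicate block, counts were 3 at MDA-MB-231 1DPTR, 5 at MDA-MB-231 10DPTR (SMARCD1 added), 1 in MDA-MB-231 10DPTR against 1DPTR, and 1, 5 and 3 in the PC3 comparisons, with 0 and 1 for the line differences. Over all genes it gave 2096 higher and 3198 lower, 2024 and 3486, and 542 and 794 in MDA-MB-231. In PC3 it gave 1318 and 1832, 2250 and 6134, and 528 and 1363, and for the line differences 497 and 756, and 1295 and 2223. Same-numbered lists did not pair beyond a correlation of 0.1 throughout in MDA-MB-231 10DPTR and control (0.056 to 0.330), PC3 1DPTR and control (−0.046 to 0.100) or PC3 10DPTR and control (0.029 to 0.253). No paired analysis was possible between untreated lines because the numbers do not join the lines.

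Of the regions, the 50000 largest peaks gave 3 gained and 2 lost at MDA-MB-231 1DPTR, 1 and 4 at 10DPTR, 0 and 5 between these, 2 and 2 at PC3 1DPTR, 2 and 3 at PC3 10DPTR, and 0 lost between these. Peaks required to cover 50% of a region gave 4 lost at MDA-MB-231 10DPTR, 2 at PC3 1DPTR, 5 at PC3 10DPTR and 8 between these.

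Depth is unknown, so closed sites and sites too weak to be called cannot be told apart.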
